A study of Mus musculus with 12 samples.

Results

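The ATP-binding cassette (ABC) transporter genes followed here, 9 exporters of drugs, conjugates and lipids, were measured in mesenchymal mouse breast cancer cells depleted of Nrf2. They were Abcc1, Abcc3, Abcc4, Abcc5, Abcb1a, Abcb1b, Abcg2, Abca1 and Abcg1. All were taken by name from the deposited expression table, as 9 of its 24454 genes, and all 9 passed the filter on low values and were tested. The rule names genes and uses no measured value, but the members were chosen with earlier results of these data known.

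ABC transporters use ATP hydrolysis to carry molecules across membranes. The ABCC members and the P-glycoproteins export drugs, conjugates and signalling molecules, Abcg2 exports drugs and urate, and Abca1 and Abcg1 load cholesterol and phospholipid onto lipoproteins. Nrf2, encoded by Nfe2l2, is a transcription factor that pairs with small Maf proteins at antioxidant response elements and is known to raise genes of glutathione synthesis and of conjugate export. Abca1 and Abcg1 are instead best known as targets of the liver X receptors (LXR), which bind with RXR to a pair of repeats spaced by several bases.

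RNA-seq was done in 3 mesenchymal lines from mouse mammary tumours: PyMT-1099 LT and Py2T LT carry the label MMTV-PyMT (polyomavirus middle T driven by the mammary tumour virus promoter), and MT∆Ecad, DeltaLN in the titles, carries the label MMTV-Neu (the Neu oncogene under the same promoter). The name MT∆Ecad marks a deletion of E-cadherin, so oncogene and deletion cannot be told apart in contrasts with the other lines. Cells of each line received an siRNA against Nrf2 (siNrf2) or a non-targeting siRNA (siCtl) for 48 hours, both from Dharmacon, with 2 libraries in each of the 6 groups and 12 in all. Total RNA was depleted of ribosomal RNA before library preparation, and values are CPM, the reads of a gene scaled to a library total of 1000000. The labels do not say whether the 2 replicates were separate cultures, so p-values measure the spread between these libraries, which may be technical, and a result in 1 line is a result on that line.

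Libraries held 27088970 to 37070635 reads assigned to genes, so 1 CPM stood for 27.1 to 37.1 reads. Nfe2l2 had 25.7 and 33.3 CPM in siNrf2 libraries against 113.1 and 113.0 CPM in siCtl libraries of PyMT-1099 LT. In Py2T LT it had 21.9 and 24.5 CPM in siNrf2 libraries against 89.7 and 83.6 CPM in siCtl libraries, and in MT∆Ecad 50.8 and 54.0 CPM in siNrf2 libraries against 207.6 and 208.6 CPM in siCtl libraries. The target was left at 26.1%, 26.8% and 25.2% of the siCtl mean in these lines and fell by 1.91 on their average (log2(CPM + 1), SE 0.07, limma adjusted p 5.3e-06). Cdh1, which encodes E-cadherin, was at 0.315 to 0.639 CPM in MT∆Ecad, the line named for it, while it reached 47.8 to 62.1 CPM in PyMT-1099 LT and 12.5 to 18.1 CPM in Py2T LT. Of 10 mesenchymal markers, 8 or 9 averaged at least 1 CPM in every group, led by Fn1. Of 10 epithelial markers, 9 did so in Py2T LT, 5 in PyMT-1099 LT and 3 in MT∆Ecad, led by the keratins Krt8 or Krt18. Their sums were 4555 to 5429 CPM in siNrf2 and 3786 to 4392 CPM in siCtl libraries of PyMT-1099 LT, 2842 to 3622 CPM in siNrf2 and 2599 to 3066 CPM in siCtl libraries of Py2T LT, and 1286 to 1293 CPM in siNrf2 and 1126 to 1230 CPM in siCtl libraries of MT∆Ecad. Their part in the results was not tested.

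In GRCm38.p6, Abcc1 spans chr16:14361453-14474878, Abcc5 chr16:20331303-20426428, Abcc4 chr14:118482692-118707856 and Abcc3 chr11:94343295-94393017. The P-glycoprotein genes sit side by side, Abcb1a at chr5:8567091-8748575 and Abcb1b at chr5:8798147-8866314. Abcg2 spans chr6:58584491-58692451, Abca1 chr4:53030789-53159988 and Abcg1 chr17:31057694-31117984.

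RefSeq promoter windows of 300 bases (250 before to 50 after a transcript start, GRCm38.p6) were found for 6 of the 9 members, in 9 windows. Abcc1, Abcc3 and Abcg1 had no window. Below are Abca1 and Abcc4, which moved in opposite directions after siNrf2 in MT∆Ecad, and the P-glycoprotein pair, of which Abcb1b but not Abcb1a was expressed in MT∆Ecad. They were chosen after their values were seen, and the Abca1 call in MT∆Ecad was near the threshold. Capitals mark a DR4 element, searched as GGTNA repeated after any 5 bases, in Abca1 and an antioxidant response element core, TGACNNNGC, in Abcc4 and Abcb1a, each searched on both strands and here found as the reverse complement.
Abca1 chr4:53159846-53160145, minus strand: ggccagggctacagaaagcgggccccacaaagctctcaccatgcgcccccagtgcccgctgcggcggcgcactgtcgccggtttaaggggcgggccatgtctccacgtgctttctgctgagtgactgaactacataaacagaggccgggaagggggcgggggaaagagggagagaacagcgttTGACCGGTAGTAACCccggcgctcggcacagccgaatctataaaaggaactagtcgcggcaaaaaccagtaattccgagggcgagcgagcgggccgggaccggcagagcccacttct
Abcc4 chr14:118706170-118706469, minus strand: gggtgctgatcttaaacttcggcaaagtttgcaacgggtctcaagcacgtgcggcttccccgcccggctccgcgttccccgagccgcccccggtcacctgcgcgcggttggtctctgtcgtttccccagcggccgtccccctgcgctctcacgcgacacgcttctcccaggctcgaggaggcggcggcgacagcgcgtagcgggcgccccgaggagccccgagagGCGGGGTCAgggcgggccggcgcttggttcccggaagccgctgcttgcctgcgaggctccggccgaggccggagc
Abcb1a chr5:8566841-8567140, plus strand: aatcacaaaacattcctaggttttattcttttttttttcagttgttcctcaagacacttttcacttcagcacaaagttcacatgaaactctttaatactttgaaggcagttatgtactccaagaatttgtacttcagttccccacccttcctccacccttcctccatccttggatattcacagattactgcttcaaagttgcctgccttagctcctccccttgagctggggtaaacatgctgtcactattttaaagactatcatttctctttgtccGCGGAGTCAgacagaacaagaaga
Abcb1b chr5:8797897-8798196, plus strand: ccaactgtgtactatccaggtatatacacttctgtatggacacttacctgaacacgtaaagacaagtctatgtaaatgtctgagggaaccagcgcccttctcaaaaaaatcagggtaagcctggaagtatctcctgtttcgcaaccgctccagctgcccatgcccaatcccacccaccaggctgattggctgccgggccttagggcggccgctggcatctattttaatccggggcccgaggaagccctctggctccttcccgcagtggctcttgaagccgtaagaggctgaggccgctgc

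The DR4 letters occurred in 1 of the 9 member windows, that of Abca1, starting 67 bases before that window's transcript start, and in 0.718% of 32851 promoter windows in the table. The core letters occurred in both Abcc4 windows, 25 and 23 bases before their transcript starts, and in Abcb1a, 27 bases into the transcript. The transcript starts of the Abca1 window and of both Abcc4 windows lie inside the gene spans given above, downstream of their outermost starts. The core letters are common: 12.4% of all windows held them. The Abcb1a window held 2 CpG dinucleotides with 40.3% G and C, against 12 CpG and 55% for Abcb1b, with medians of 7 CpG and 52.7% over all windows. A match is a description of letters and not a bound site.

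Both 29-base stretches of the Abcc1 3′ UTR below are given because they hold ACCATTT, marked in capitals. This 7-base word was taken up from earlier results of these data. The Nfe2l2 3′ UTR holds it as well.
Abcc1 first, motif at chr16:14473723-14473729, plus strand: aggcgtctgtcACCATTTggcttcatcct
Abcc1 second, motif at chr16:14474878-14474884, plus strand: ctttctaaacgACCATTTtatttttattt
Nfe2l2, motif at chr2:75675747-75675753, minus strand: atttcttaggcACCATTTgggagagtttc

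The second Abcc1 copy begins at the last base of the RefSeq span given above and runs past it, in the longer GENCODE transcript. Abcc1 held 2 copies, Abcg2 and Abca1 held 1 each, and the other 6 members held none in the GENCODE transcripts. The word GAGAAGT, followed in the same way, occurred in no member. Over tested genes with an annotated 3′ UTR, the median average effect of siNrf2 was −0.06 for the 1766 genes with ACCATTT and 0.00 for the 10197 without it, on the log2(CPM + 1) scale. For GAGAAGT the medians were −0.04 for the 1520 genes with it and −0.003 for the 10443 without it. ACCATTT was taken up from earlier results of these same data, so its comparison is not independent of them. The part of ACCATTT in the fall of Abcc1 was not tested.

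Before the effect of siNrf2, the lines themselves differed widely in which transporters they carried. Levels of different genes are compared here per kilobase of the longest coding transcript. In siCtl cells Abcc1 was the highest member in each line, at 56.5 CPM per kilobase in MT∆Ecad, 59.2 in Py2T LT and 46.8 in PyMT-1099 LT, although in PyMT-1099 LT its libraries (48.8 and 44.7) overlapped those of Abcc4 (44.9 and 35.6). In PyMT-1099 LT it was followed by Abcc4 at 40.3 ± 6.56 and Abcc5 at 38.9 ± 2.00 CPM per kilobase, which lay within 1 SD of each other (n = 2), then Abcb1b at 19.6, Abcb1a at 7.58, Abcc3 at 5.67 and Abcg2 at 1.97. In Py2T LT the second place went to Abcb1b at 30.5 CPM per kilobase, with Abcc4 at 25.2 and little gap between their libraries, and then Abcb1a at 12.7 ± 0.911 and Abcc5 at 12.1 ± 0.801, which lay within 1 SD of each other (n = 2), Abcg2 at 5.78 and Abcg1 at 1.84. In MT∆Ecad the order was Abcc5 at 24.6 CPM per kilobase, Abcb1b at 15.8, Abca1 at 5.90, Abcg2 at 4.74, Abcc4 at 3.89 and Abcg1 at 2.11, with Abca1 and Abcg2 separated by about the sum of their SDs of 0.855 and 0.313. After siNrf2 the same line had Abcc1 at 29.9, Abcc5 at 22.1, Abcb1b at 10.96, Abca1 at 9.68, Abcg2 at 3.52, Abcg1 at 3.43 and Abcc4 at 2.20 CPM per kilobase.

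Abca1, Abcb1a, Abcc3 and Abcg1 were all but missing in 1 or 2 of the lines. Abca1 had 0 reads in all 4 PyMT-1099 LT libraries, which allows up to 0.108 CPM in the shallowest of them. It had 3483 reads over the 2 siCtl libraries of MT∆Ecad, at least 1260-fold more, scaled to depth, than a floor of 3 reads over the PyMT-1099 LT siCtl group, and 80 reads in Py2T LT, at least 25.1-fold more. Abcb1a showed the reverse: it had 1 read over the 4 MT∆Ecad libraries, against 2399 reads in siCtl PyMT-1099 LT and 4274 in siCtl Py2T LT. Abcc3 was carried by PyMT-1099 LT alone at more than a trace, with 1795 siCtl reads against 1 in Py2T LT and 1 in MT∆Ecad, a ratio to Py2T LT of 1904 (exact 95% counting interval 341 to 75260). Abcg1 had 703 siCtl reads in MT∆Ecad and 713 in Py2T LT, against 9 in PyMT-1099 LT, ratios of 84.8 (44.4 to 186) and 74.7 (39.1 to 164). These intervals and floors cover counting error only. In bulk RNA, fewer cells with a transcript and less RNA per cell cannot be told apart.

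Tests across all 12502 genes that passed the filter gave the following between siCtl groups, which are also the controls of the siNrf2 comparisons further on. In MT∆Ecad minus PyMT-1099 LT, 4 members were higher (Abcc1, Abcg2, Abca1 and Abcg1) and 4 lower (Abcc4, Abcc5, Abcc3 and Abcb1a), where 27% of all genes were called higher and 30.6% lower. In MT∆Ecad minus Py2T LT, Abcc5 and Abca1 were higher and Abcc4, Abcb1a and Abcb1b lower, where 25.9% of all genes were higher and 28.6% lower. In Py2T LT minus PyMT-1099 LT all 9 were called, 6 higher and 3 lower (Abcc4, Abcc5 and Abcc3), where 28.1% and 27.5% of all genes were. Most genes were thus called in each pair of lines, and the members' counts are read against that.

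Among the members expressed in every line, the largest contrast was in Abcc4, which exports cyclic nucleotides and prostaglandins. In log2(CPM + 1) units it differed by −3.31 (SE 0.14, limma adjusted p 2.3e-08) in MT∆Ecad minus PyMT-1099 LT and by −2.64 (SE 0.14, limma adjusted p 1.7e-07) in MT∆Ecad minus Py2T LT. Abcc5, an exporter of cyclic GMP and nucleotide analogues, differed by −1.67 (SE 0.11, limma adjusted p 1.1e-06) in Py2T LT minus PyMT-1099 LT. Abcg2 differed by 1.48 (SE 0.16, limma adjusted p 3.4e-05) in the same pair of lines. Abcc1 differed the least, by 0.34 (SE 0.09, limma adjusted p 0.011) in Py2T LT minus PyMT-1099 LT and by −0.07 (95% interval −0.28 to 0.14) in MT∆Ecad minus Py2T LT. Its higher call in MT∆Ecad than in PyMT-1099 LT, 0.27, was lost without PyMT-1099 LT siCtl replicate 2 or MT∆Ecad siCtl replicate 1 (limma adjusted p up to 0.21). In Py2T LT minus PyMT-1099 LT its call was lost without PyMT-1099 LT siCtl replicate 2 or Py2T LT siCtl replicate 1 (up to 0.084), and that of Abcb1a (0.74) without PyMT-1099 LT siCtl replicate 1 or Py2T LT siCtl replicate 2 (up to 0.061).

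**Figure D1:**
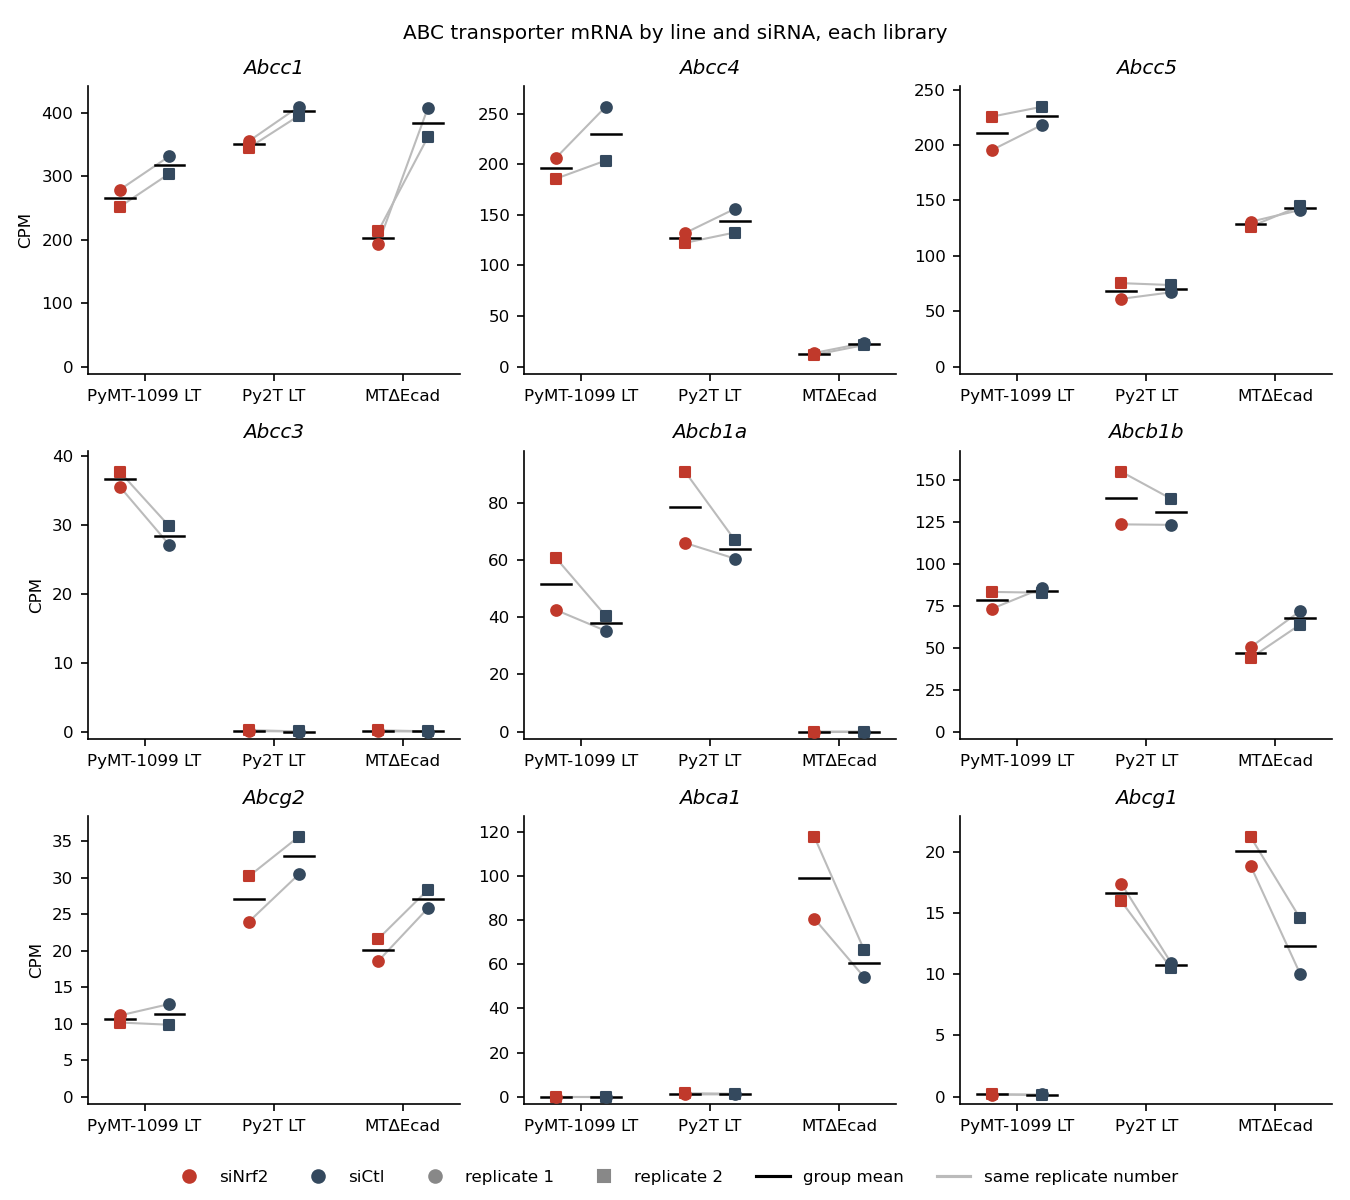
CPM of each transporter gene in each of the 12 libraries, by line, with siNrf2 left of siCtl, circles for replicate 1, squares for replicate 2, black bars for the group means and grey lines joining libraries of the same replicate number. Abcc1 in MT∆Ecad lies at 193 and 213 CPM after siNrf2 against 407 and 361 CPM after siCtl, and Abca1 is seen almost only in MT∆Ecad.

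The question the knockdown addresses is which transcripts change after siNrf2 in mesenchymal cells. Averaged over the 3 lines, in log2(CPM + 1) units that understate the change of low genes, Abcc1 (−0.46, SE 0.05, limma adjusted p 0.0024) and Abcc4 (−0.39, SE 0.08, limma adjusted p 0.016) fell and Abcg1 (0.44, SE 0.09, limma adjusted p 0.016) and Abcc3 (0.23, SE 0.06, limma adjusted p 0.036) rose. Against these 2 higher and 2 lower members of 9, 5.99% of all genes were called higher and 6.26% lower, and the median effect was −0.10 over the members and −0.01 over all genes. The counts rested in part on single libraries. Fewer members were called without MT∆Ecad siNrf2 replicate 2 or MT∆Ecad siCtl replicate 1, and so were fewer of all genes. With the replicate number as a block, all 9 were called, 4 higher (19% of all genes) and 5 lower (21% of all genes). The sign of 1 of the 4, Abcb1a, depended on the tool.

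The counts of calls differed between the 3 lines, which by itself does not show that the effects differed. The direct comparison between lines, given further on, called 1 member. In MT∆Ecad 2 members were higher (Abca1 and Abcg1, where 8.89% of all genes were) and 3 lower (Abcc1, Abcc4 and Abcb1b, where 8.42% were). In PyMT-1099 LT limma called 0 of 9 (0.336% of all genes higher and 0.184% lower), with 2 members, Abcc1 and Abcc3, at an unadjusted p under 0.05 and 0 called by edgeR and by DESeq2. In Py2T LT it called 0 of 9 (0.056% higher and 0.096% lower), with 1, Abcg1, at an unadjusted p under 0.05 and 0 called by edgeR and by DESeq2. Fewer members were called in MT∆Ecad without MT∆Ecad siNrf2 replicate 2, MT∆Ecad siCtl replicate 1 or MT∆Ecad siCtl replicate 2. The number called over all genes fell in these fits as well.

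**Figure D2:**
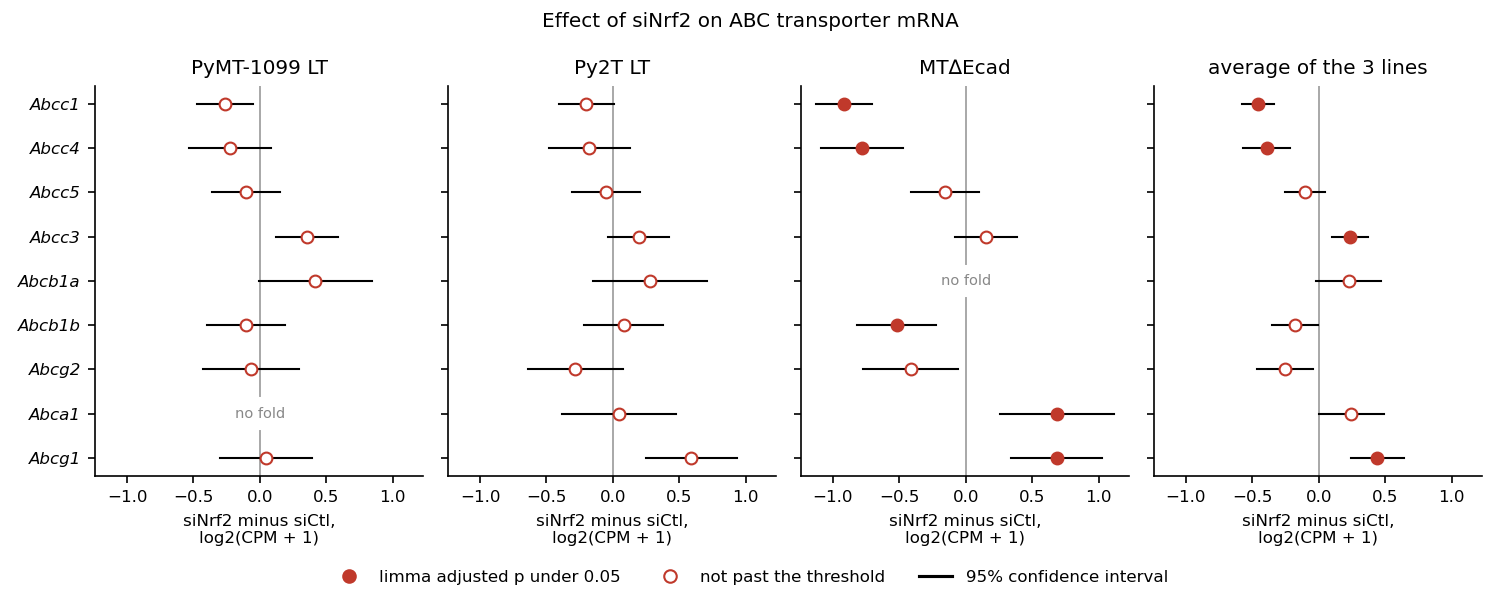
Difference siNrf2 minus siCtl in log2(CPM + 1), horizontal axis, for the 9 genes in each line and averaged, with 95% confidence intervals and filled points where limma's adjusted p was under 0.05. There are 5 points filled in MT∆Ecad, 4 in the average and none in the other panels, and no fold is drawn where both groups had at most 1 read.

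Abcc1 encodes MRP1, the export pump for glutathione conjugates and leukotriene C4. In MT∆Ecad it had 193 and 213 CPM in siNrf2 libraries, against 407 and 361 CPM in siCtl libraries. The groups lay far apart, the siNrf2 mean being 52.8% of the siCtl mean, and Abcc1 fell by 0.92 (SE 0.09, limma adjusted p 0.00057). In PyMT-1099 LT it had 278 and 252 CPM in siNrf2 libraries, against 331 and 304 CPM in siCtl libraries, and in Py2T LT 355 and 345 CPM in siNrf2 libraries, against 409 and 395 CPM in siCtl libraries. The groups did not overlap in these lines either, at 83.4% and 87.0% of the siCtl mean, but the differences of −0.26 (SE 0.09, limma adjusted p 0.36) and −0.20 (SE 0.09, limma adjusted p 0.96) did not pass. In both the MT∆Ecad and the average comparison Abcc1 kept its call in each of the 12 fits without 1 library and by edgeR and DESeq2.

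The effect on Abcc1 also differed between the lines, the only member of 9 for which limma's F test passed (adjusted p 0.039, with 2.18% of all genes called). The effect differed by −0.66 (SE 0.13, limma adjusted p 0.043, with 0.648% of all genes lower) in MT∆Ecad minus PyMT-1099 LT and by −0.72 (SE 0.13, limma adjusted p 0.026, with 0.96% lower) in MT∆Ecad minus Py2T LT. The F test's call was close to the threshold: it was lost in each of the 12 fits without 1 library (limma adjusted p 0.057 to 0.203), with a pseudocount of 0.1 (0.070), with TMM scaling (0.061) and by edgeR (0.13), and kept by DESeq2 (0.0070). The difference from PyMT-1099 LT was lost in the same 12 fits (0.0517 to 0.193), with pseudocounts of 0.1 (0.092) and 0.5 (0.057), without a filter (0.054), with a filter at 5 CPM (0.053), with TMM scaling (0.079) and by edgeR (0.19), and kept by DESeq2 (0.038). The difference from Py2T LT was lost in 6 of the 12 fits (up to 0.113) and by edgeR (0.075). With the replicate block 5 members differed between lines (19% of all genes): Abcc1 (limma adjusted p 0.0076), Abcc4 (0.0095), Abcb1b (0.016), Abca1 (0.019) and Abcg1 (0.035). With it the effect in MT∆Ecad differed from that in PyMT-1099 LT for 5 members (14.5% of all genes) and from that in Py2T LT for 4 (22.9% of all genes).

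Abcc4 encodes MRP4. In MT∆Ecad it had 13.5 and 11.6 CPM in siNrf2 libraries, against 23.2 and 21.3 CPM in siCtl libraries. The groups were well separated, at 56.5% of the siCtl mean, and the fall was 0.78 (SE 0.14, limma adjusted p 0.0061). In PyMT-1099 LT it had 206 and 186 CPM in siNrf2 libraries, against 257 and 204 CPM in siCtl libraries, and in Py2T LT 132 and 122 CPM in siNrf2 libraries, against 156 and 133 CPM in siCtl libraries. Groups overlapped in PyMT-1099 LT and nearly touched in Py2T LT, with differences of −0.22 (SE 0.14) and −0.18 (SE 0.14) that did not pass. Within each replicate number the siNrf2 library was the lower one in all 6 pairs, but both the average call and the MT∆Ecad call were lost without MT∆Ecad siNrf2 replicate 2 or MT∆Ecad siCtl replicate 1 (limma adjusted p 0.053 and 0.054 for the average, 0.064 and 0.062 in MT∆Ecad).

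Abcc5, encoding MRP5, did not pass in any line. It had 196 and 226 CPM in siNrf2 libraries, against 218 and 235 CPM in siCtl libraries of PyMT-1099 LT, 61.2 and 75.3 CPM in siNrf2 libraries against 67.1 and 73.6 CPM in siCtl libraries of Py2T LT, and 131 and 126 CPM in siNrf2 libraries against 141 and 145 CPM in siCtl libraries of MT∆Ecad. Groups overlapped in PyMT-1099 LT and Py2T LT and lay apart in MT∆Ecad (−0.15, SE 0.11, limma adjusted p 0.42), and the average difference was −0.10 (95% interval −0.25 to 0.05, limma adjusted p 0.35, and 0.047 with the replicate block).

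Abcc3, encoding MRP3, which exports glucuronides and bile acids, was expressed in PyMT-1099 LT, at 35.5 and 37.7 CPM in siNrf2 libraries, against 27.1 and 29.7 CPM in siCtl libraries. The siNrf2 libraries were both higher, by 0.36 (SE 0.10), which did not pass without the block (limma adjusted p 0.25) and did with it (0.040, with 5.05% of all genes higher). In Py2T LT it had 3 and 8 reads in siNrf2 libraries against 0 and 1 in siCtl libraries, and in MT∆Ecad 2 and 7 reads in siNrf2 libraries against 0 and 1 in siCtl libraries. These traces ran the same way, as depth-scaled ratios of 10.99 (exact 95% counting interval 1.60 to 473) and 7.89 (1.09 to 346). The average call for Abcc3 therefore joins 1 expressing line with 2 near the floor: its value was 0.23 with a pseudocount of 1 and 0.82 with 0.1, against 2.09 by edgeR and 2.29 by DESeq2. It was lost without a filter (limma adjusted p 0.058) and in 10 of the 12 fits without 1 library (0.0525 to 0.103), all but those without Py2T LT siNrf2 replicate 1 or MT∆Ecad siNrf2 replicate 1.

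Abcb1a and Abcb1b are the mouse pair that corresponds to the single human P-glycoprotein gene, and they share sequence: 9.78% of the 81-base windows of the Abcb1a transcript occur unchanged in Abcb1b, so part of their reads could be split between them. Reads were 81 bases long. In Py2T LT, Abcb1a had 65.9 and 90.8 CPM in siNrf2 libraries, against 60.5 and 66.9 CPM in siCtl libraries. In PyMT-1099 LT it had 42.5 and 60.7 CPM in siNrf2 libraries, against 35.2 and 40.5 CPM in siCtl libraries. The siNrf2 libraries were higher within each replicate number of these 2 lines, yet the groups overlapped in Py2T LT and the average difference of 0.22 did not pass (95% interval −0.02 to 0.47, limma adjusted p 0.22, and 0.027 with the block). The average was −0.57 by edgeR (adjusted p 0.65) and −0.28 by DESeq2 (adjusted p 0.90), the opposite sign. MT∆Ecad had 0 and 0 reads in siNrf2 libraries against 0 and 1 in siCtl libraries, so no fold is given there. Rundc3b overlaps Abcb1a and had 76.9 to 90.7 CPM in PyMT-1099 LT, 9.34 to 10.6 CPM in Py2T LT and at most 0.0369 CPM in MT∆Ecad. The library kit keeps strand, but whether counting used it is not given in the sources used here.

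Abcb1b stayed expressed where Abcb1a was not. In MT∆Ecad it had 50.4 and 43.9 CPM in siNrf2 libraries, against 72.0 and 64.0 CPM in siCtl libraries. The groups did not overlap, at 69.4% of the siCtl mean, and Abcb1b fell by 0.52 (SE 0.13, limma adjusted p 0.026), a call lost without MT∆Ecad siNrf2 replicate 2 (0.194), MT∆Ecad siCtl replicate 1 (0.188) or MT∆Ecad siCtl replicate 2 (0.0556). In PyMT-1099 LT it had 73.5 and 83.5 CPM in siNrf2 libraries against 85.6 and 83.0 CPM in siCtl libraries, and in Py2T LT 124 and 155 CPM in siNrf2 libraries against 123.5 and 139 CPM in siCtl libraries. Groups overlapped in both, and the average of −0.18 (SE 0.08) did not pass (limma adjusted p 0.15, 0.011 with the block, and 0.049 without Py2T LT siNrf2 replicate 2).

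As a share of the reads of both genes, Abcb1a took 36.7% and 42.1% in siNrf2 libraries, against 29.2% and 32.8% in siCtl libraries of PyMT-1099 LT, where the widest exact binomial 95% interval ran from 35.0% to 38.3%. In Py2T LT its share was 34.8% and 36.9% in siNrf2 libraries, against 32.9% and 32.5% in siCtl libraries. The share was higher in both siNrf2 libraries of each of these lines, and this difference was not tested. In MT∆Ecad it was 0% and 0% in siNrf2 libraries, against 0% and 0.0577% in siCtl libraries, with upper bounds of 0.166% to 0.321%.

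**Figure D3:**
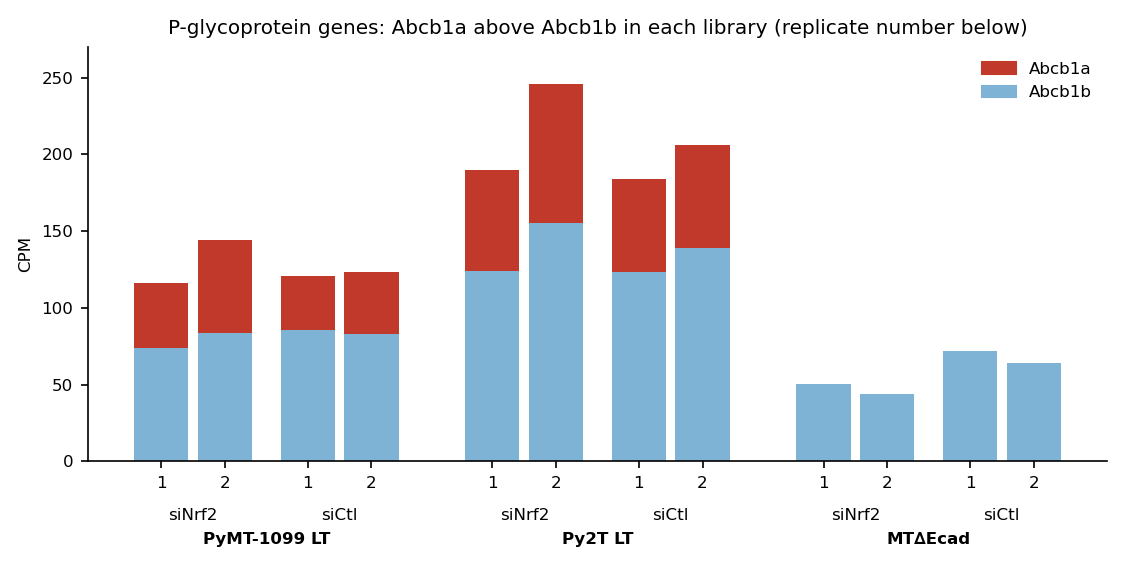
Stacked CPM of Abcb1a (red, above) and Abcb1b (blue, below) in each library, with siNrf2 left of siCtl in each line and the replicate number under each bar. The red part is absent from the MT∆Ecad bars, which reach 43.9 to 72.0 CPM, and is 29.2% to 42.1% of the reads in the other bars.

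Endothelial cells are a known site of Abcb1a expression, so their markers are given beside it. The 6 endothelial markers summed to 122 to 124 CPM in siNrf2 libraries, against 88.0 to 90.7 CPM in siCtl libraries of PyMT-1099 LT, of which Cdh5 made up nearly the whole, while Tek and Emcn had 0 reads. In Py2T LT the sum was 5.05 to 6.30 CPM in siNrf2 libraries against 4.45 to 5.195 CPM in siCtl libraries. In MT∆Ecad no marker averaged 1 CPM. Of the 6 markers, 1 averaged at least 1 CPM in each of the other 2 lines, and their part in the Abcb1a values was not tested.

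Abcg2, encoding the breast cancer resistance protein that also secretes riboflavin into milk, was low in each line. In MT∆Ecad it had 18.6 and 21.6 CPM in siNrf2 libraries, against 25.8 and 28.4 CPM in siCtl libraries. The groups did not overlap, and the difference of −0.42 (SE 0.16) passed with the replicate block (limma adjusted p 0.0057, with 21.2% of all genes lower) and not without it (0.11). In Py2T LT it had 24.0 and 30.2 CPM in siNrf2 libraries against 30.5 and 35.6 CPM in siCtl libraries, and in PyMT-1099 LT 11.1 and 10.2 CPM in siNrf2 libraries against 12.7 and 9.86 CPM in siCtl libraries. Groups lay side by side in Py2T LT and overlapped in PyMT-1099 LT, and the average of −0.25 (95% interval −0.46 to −0.05) did not pass after adjustment (limma adjusted p 0.10, and 0.0054 with the block).

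The lipid exporters were higher after siNrf2 in MT∆Ecad. Abca1 passes cholesterol and phospholipid to apolipoprotein A-I, and in MT∆Ecad it had 80.8 and 118 CPM in siNrf2 libraries, against 54.3 and 66.7 CPM in siCtl libraries. The groups did not overlap but the siNrf2 pair was wide apart, and Abca1 rose by 0.69 (SE 0.19, limma adjusted p 0.036). That call was near the threshold and was lost with pseudocounts of 0.1 (0.089) and 0.5 (0.052), without a filter (0.064), by edgeR (0.061) and in 9 of 12 fits without 1 library (up to 0.25), holding only without Py2T LT siNrf2 replicate 1, Py2T LT siNrf2 replicate 2 or MT∆Ecad siNrf2 replicate 1, and its value without MT∆Ecad siNrf2 replicate 2 was 0.42. In Py2T LT it had 1.001 and 1.535 CPM in siNrf2 libraries, against 1.05 and 1.32 CPM in siCtl libraries, which overlapped. PyMT-1099 LT had no reads in either group, and the average of 0.25 (SE 0.11) did not pass (limma adjusted p 0.18, and 0.010 with the block).

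Abcg1, which moves cholesterol to high-density lipoprotein, had 18.9 and 21.2 CPM in siNrf2 libraries of MT∆Ecad, against 10.0 and 14.5 CPM in siCtl libraries. In Py2T LT it had 17.4 and 15.9 CPM in siNrf2 libraries, against 10.9 and 10.5 CPM in siCtl libraries. Groups were apart in both lines, by 1.63-fold and 1.55-fold of the means. The rise in MT∆Ecad was 0.68 (SE 0.15, limma adjusted p 0.016) and the difference in Py2T LT was 0.59 (SE 0.15, limma adjusted p 0.38). The effect in MT∆Ecad minus that in Py2T LT was 0.09 (95% interval −0.40 to 0.58, limma adjusted p 0.92), and the F test over the 3 lines gave an adjusted p of 0.27, and of 0.035 with the block. PyMT-1099 LT held traces, 5 and 7 reads in siNrf2 libraries against 5 and 4 in siCtl libraries. The average call was lost by edgeR (adjusted p 0.11) and DESeq2 (0.11) and without MT∆Ecad siNrf2 replicate 2 (limma 0.053), and the MT∆Ecad call without that library (0.13) or MT∆Ecad siCtl replicate 1 (0.0998, at 0.43).

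Macrophages express both lipid exporters at high levels, so their markers are given beside these values. In MT∆Ecad the 8 macrophage markers summed to 11.1 to 11.3 CPM in siNrf2 libraries, against 9.14 to 12.2 CPM in siCtl libraries, ranges that overlapped, and Adgre1, Tyrobp and C1qa had 0 reads. In Py2T LT the sums were 80.3 to 87.5 CPM in siNrf2 libraries against 64.8 to 68.5 CPM in siCtl libraries, with Tyrobp and C1qa at 0 reads. The PyMT-1099 LT sums were 87.7 to 88.5 CPM in siNrf2 libraries against 60.3 to 64.9 CPM in siCtl libraries. Of the 8 markers 2 averaged at least 1 CPM in every group, led by Cd14. Their part in the values of the lipid exporters was not tested.

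The other LXR genes were described from a list of 13 receptors and targets that holds neither exporter. This list and those below were chosen with earlier results of these data known. Calls of their genes are given from the main fit alone, and those near the threshold may rest on single libraries. On the average of the lines 3 rose, the phosphodiesterase Smpdl3a (0.41, SE 0.06), the phospholipid acyltransferase Lpcat3 (0.29, SE 0.08) and the receptor Nr1h3 itself (0.20, SE 0.05), with limma adjusted p of 0.0041, 0.043 and 0.041, where 5.99% of all genes rose. In MT∆Ecad 6 rose and 1 fell (8.89% and 8.42% of all genes), with a list median of 0.45 against 0.00 over all genes, while the medians were −0.12 in Py2T LT and 0 in PyMT-1099 LT, where none was called. Smpdl3a (1.13), Lpcat3 (0.50) and Nr1h3 (0.46) were among these 6. Chosen after their values were seen, the other risers were the ubiquitin ligase Mylip (0.70, limma adjusted p 0.030), the phospholipid transfer protein Pltp (0.67, 0.015) and the desaturase Scd1 (0.65, 0.043), while the small GTPase Arl4c (−0.60, 0.046) fell. Smpdl3a averaged 5.28 CPM in siNrf2 and 1.85 CPM in siCtl libraries of MT∆Ecad and was near 0 in the other lines. Lpcat3 averaged 127.5 CPM in siNrf2 and 90.3 CPM in siCtl libraries of MT∆Ecad.

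**Figure D4:**
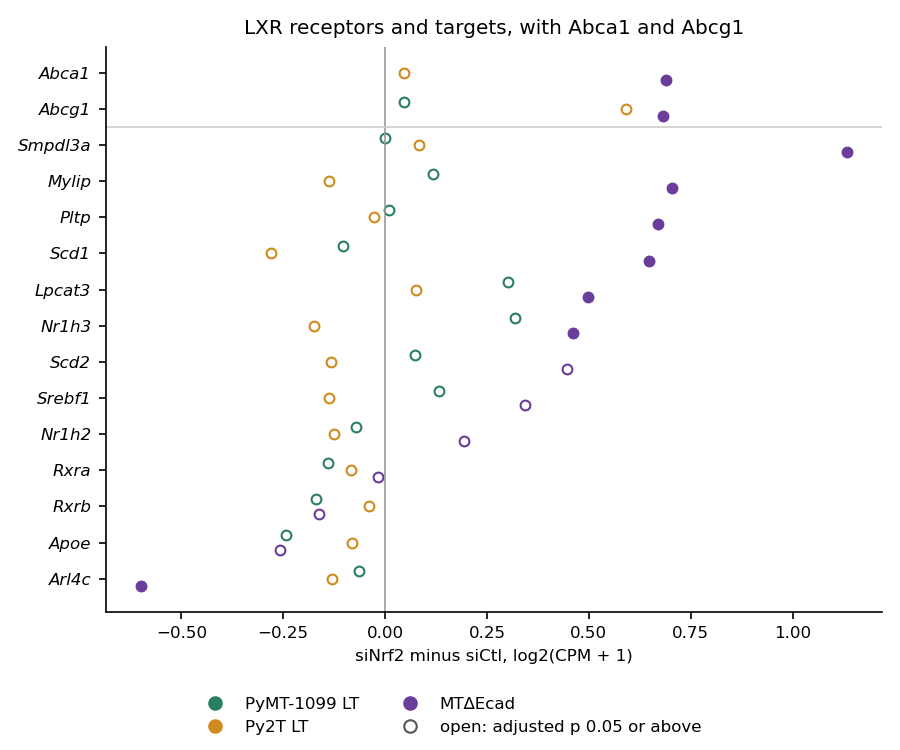
Difference siNrf2 minus siCtl in log2(CPM + 1) in each line for Abca1 and Abcg1, above the grey rule, and for the 13 listed LXR receptors and targets, with filled points where limma's adjusted p was under 0.05. The filled points are all from MT∆Ecad, from −0.60 for Arl4c to 1.13 for Smpdl3a.

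Intracellular cholesterol handling genes were mixed. Of 18 tested, 4 rose and 2 fell on the average (5.99% and 6.26% of all genes), with a median of 0.06 against −0.01 over all genes. Lipa, the lysosomal acid lipase (0.31), Npc1, which moves cholesterol out of lysosomes (0.30), and Soat1, which esterifies it (0.29), rose, with limma adjusted p of 0.018, 0.0061 and 0.019. Lipa averaged 166 CPM in siNrf2 and 122.5 CPM in siCtl libraries of MT∆Ecad, and 114.7 CPM in siNrf2 and 79.7 CPM in siCtl libraries of PyMT-1099 LT. In Py2T LT it averaged 33.2 CPM in siNrf2 and 34.1 CPM in siCtl libraries.

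Genes that make the conjugates exported by the ABCC pumps were lower in several cases. Of 24 tested genes of glutathione and glucuronide conjugation, 11 fell on the average (6.26% of all genes), with a list median of −0.22 against −0.01 over all genes. The glutathione transferases Gsta4 (−1.71, SE 0.12), Gsta1 (−0.95, SE 0.08) and Gstm1 (−0.91, SE 0.07) and the glutathione synthesis subunit Gclc (−0.79, SE 0.05) led, with limma adjusted p of 0.00051, 0.00079, 0.00054 and 0.00025. In MT∆Ecad 12 fell and 2 rose, where 8.42% and 8.89% of all genes did (list median −0.31 against 0.00 over all genes). In PyMT-1099 LT 2 fell (0.184% of all genes) and in Py2T LT 2 fell (0.096% of all genes). Gsta4 averaged 71.1 CPM in siNrf2 and 258.5 CPM in siCtl libraries of MT∆Ecad. Gsta1 averaged 0.876 CPM in siNrf2 and 7.57 CPM in siCtl libraries of MT∆Ecad and under 1 CPM in the other lines.

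Among 44 other ABC genes, 23 passed the filter, and 3 rose and 1 fell on the average (5.99% and 6.26% of all genes), with a median of 0.02 against −0.01 over all genes. Abca7, a phospholipid transporter (0.41, SE 0.08), the peptide transporter subunit Tap1 (0.31, SE 0.08) and the surfactant lipid transporter Abca3 (0.24, SE 0.05) rose, and the porphyrin transporter Abcb6 fell by 0.27 (SE 0.06), with limma adjusted p of 0.015, 0.037, 0.018 and 0.030. In MT∆Ecad 5 rose and 1 fell (8.89% and 8.42% of all genes). Chosen after their values were seen, both subunits of the peptide transporter for antigen presentation stood highest there, Tap2 at 1.19 (SE 0.18, limma adjusted p 0.0037) and Tap1 at 0.98 (SE 0.14, limma adjusted p 0.0025). Tap1 averaged 9.03 CPM in siNrf2 and 4.12 CPM in siCtl libraries of MT∆Ecad and under 1 CPM in the other lines.

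**Figure D5:**
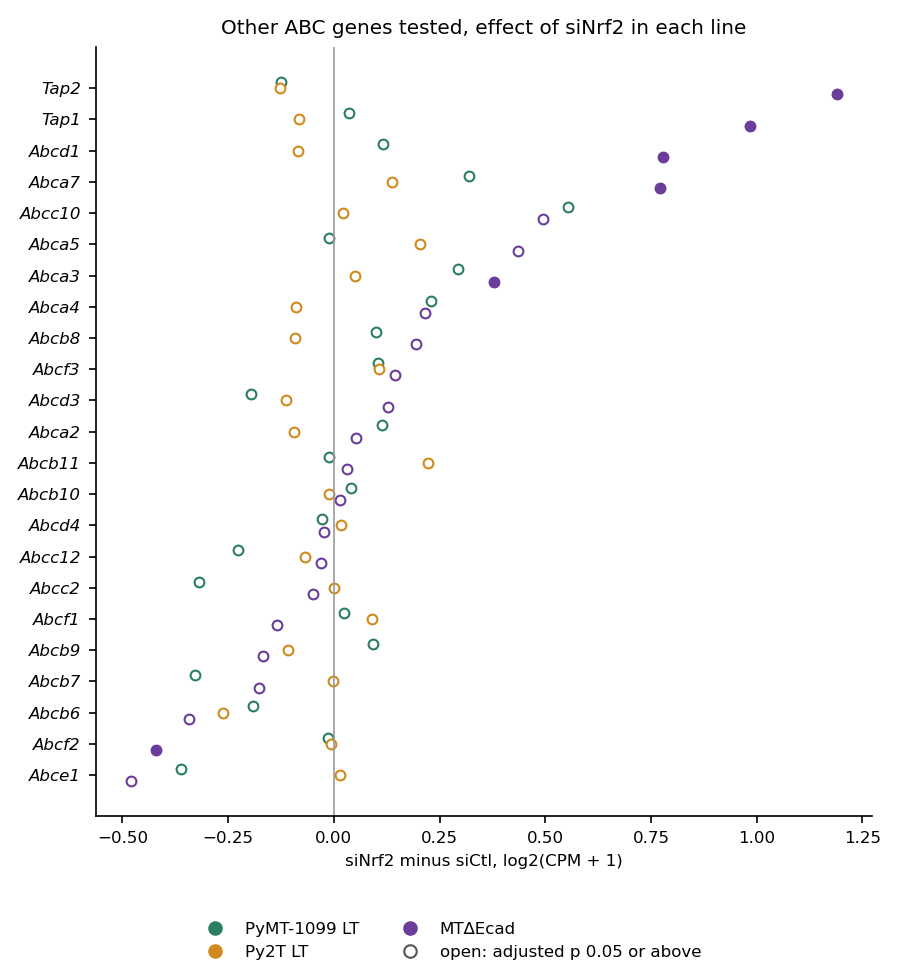
Difference siNrf2 minus siCtl in log2(CPM + 1) in each line for the 23 other ABC genes that passed the filter, ordered by their value in MT∆Ecad, with filled points where limma's adjusted p was under 0.05. The 6 filled points are all from MT∆Ecad, led by Tap2 at 1.19, with Abcf2 the lower one at −0.42.

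Of 6 tested xenobiotic-sensing receptors, 1 rose on the average (5.99% of all genes), the bile acid receptor Nr1h4 (0.36, SE 0.08, limma adjusted p 0.026). It averaged 11.2 CPM in siNrf2 and 4.74 CPM in siCtl libraries of MT∆Ecad, but 9.89 CPM in siNrf2 and 10.08 CPM in siCtl libraries of PyMT-1099 LT, and had 0 CPM in both groups of Py2T LT. Of 8 tested uptake carriers, 1 rose (again beside 5.99% of all genes), the prostaglandin carrier Slco2a1 (0.35, SE 0.07, limma adjusted p 0.014), at 644 CPM in siNrf2 and 472 CPM in siCtl libraries of PyMT-1099 LT and 900 CPM in siNrf2 and 669 CPM in siCtl libraries of MT∆Ecad.

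The members' patterns over the 12 libraries mostly followed the line. As a description, Abcc4 and Abca1 ran opposite (Pearson r −0.995 of log2(CPM + 1), n = 12 libraries, which share 3 lines), and so did Abcc3 and Abcg1 (−0.98), while Abcc4 and Abcb1a ran together (0.944). Among 10039 genes with a mean of at least 5 CPM, those most like Abcc1 were Mcm6 (0.990), Incenp (0.974) and Slc25a5 (0.973). For Abcc4 they were Ets2, Sh3bgrl2 and Wipf1 (0.995 to 0.996), for Abcc5 Anp32a, Lgalsl and Phldb2 (0.995 to 0.998) and for Abcc3 Mlph, Il22ra1 and Hnf4a (0.999 to 0.9996). Abcb1a was most like Il18rap, Cpm and Tgfa (0.997 to 0.999), Abcb1b like Tmem131, Ddx21 and Cdr2 (0.989 to 0.992) and Abcg2 like Cdc23, Slfn3 and Mtmr2 (0.977 to 0.981). Abca1 was most like Adgrg6, Ang2 and Olfml3 (0.999) and Abcg1 like Acp5, H2-D1 and Eml2 (0.991 to 0.995).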

How the data were processed

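RNA-seq of 12 libraries (3 lines, siNrf2 or siCtl, 2 libraries in each of 6 groups) was deposited by the authors as CPM per Entrez gene. Per the submitters' processing notes, reads were aligned with STAR to mm10. The counter, annotation and strand setting are not given in the sources used here. Each CPM column sums to 1000000, and 100% of values were whole multiples of 1 read (tolerance 0.01), so reads were recovered: 27088970 to 37070635 per library, with a floor of 3 reads at 0.0809 to 0.111 CPM. Intervals from reads cover counting error only. Of 24454 gene IDs, 24374 matched RefSeq symbols. No per-sample column was left unmapped.

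Genes at 1 CPM or more in at least 2 libraries (12502) were tested on log2(CPM + 1) in limma 3.58.1 (R 4.3.3) with 6 group means fitted to all 12 libraries, and p-values were adjusted over all genes by Benjamini-Hochberg at 0.05. Contrasts were siNrf2 minus siCtl per line and averaged, siCtl lines against each other, and an F test of the siNrf2 effect between lines. The fit was tested on simulated data. edgeR 4.0.16 (quasi-likelihood) and DESeq2 1.42.0 ran on the recovered reads, calling 856 and 1264 genes on the average against 1532 by limma. Other alternatives were the pseudocount, the filter, TMM scaling, the replicate block, leaving out each library and fitting only the lines compared.

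Replicate numbers come from the sample titles. Same-numbered siNrf2 and siCtl libraries deviated together in each line (r across genes 0.778, 0.846 and 0.625). The labels state no pairing, so the main fit and its p-values are unpaired. The replicate block, given beside them as an alternative, is the fit that pairs same-numbered libraries. Replicates of a group differed beyond sampling noise (chi-squared per gene 15.2 to 81.2), so none was a repeated deposit.

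All members were named. Other genes were named up to 4 per list by size of the average effect among those called. A gene that this rule would name is not reported here. The members and lists were chosen with earlier results of these data known. Promoters and their motifs are from RefSeq and 3′ UTRs and transcript lengths from GENCODE.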

Additional observations from a re-analysis of the deposited data

Results flagged for a closer look

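The effect of siNrf2 on Abcc1 differed between the 3 lines by limma's F test (adjusted p 0.0389), with differences of −0.92 for MT∆Ecad, −0.20 for Py2T LT and −0.26 for PyMT-1099 LT on the log2(CPM + 1) scale. Abcc1 was lower in the siNrf2 libraries in 6 of 6 same-numbered pairs.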

How the results depend on the processing

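Over the single-gene results, 1358 alternative values kept their direction and side of the threshold, 82 lost a call, 17 gained one and 11 changed sign. With 2 libraries a group, calls near the threshold rested on single libraries. Leaving out 1 library gave as many members called or fewer on the average and in MT∆Ecad. Most of these fits called fewer of all genes as well. Leaving out 1 library also left no member called for the difference between lines. That difference also had 0 members called with a pseudocount of 0.1, with TMM scaling and by edgeR. The replicate block gave 9 members called on the average, 1 in PyMT-1099 LT and 5 for the difference between lines, and over all genes it called 4997 on the average against 1532 without it, 856 by edgeR and 1264 by DESeq2. The block also gained Abcg2 in MT∆Ecad and gave 5 and 4 members, against 1 and 1 without it, for the effect in MT∆Ecad minus PyMT-1099 LT and minus Py2T LT, and it changed no member's call between siCtl lines. Abcb1a's average effect was −0.57 by edgeR and −0.28 by DESeq2 against 0.22 by limma, with 1 read behind it in MT∆Ecad. Leaving out 1 library gave −0.24 to 0.10 for Abcg2 in PyMT-1099 LT. For Py2T LT it gave −0.20 to 0.10 for Abcc5, −0.0812 to 0.24 for Abcb1b and −0.12 to 0.22 for Abca1. Between siCtl MT∆Ecad and Py2T LT it gave −0.15 to 0.0175 for Abcc1 and −0.0888 to 0.41 for Abcg1. The causes were not tested. Fitting only the lines compared left members that missed the filter there without a value.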
